A study of Mus musculus with 6 samples.

Results

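The NuRD complex was followed here through the transcripts of 10 of its subunit genes, Chd4, Mta1, Mta2, Mta3, Hdac1, Hdac2, Mbd2, Mbd3, Rbbp4 and Rbbp7, in mouse megakaryocytes, the bone marrow and fetal liver cells that shed platelets. The members were all probe sets that the platform annotation gives to 1 of these genes and to no other gene. There were 22 such probe sets among 45101 on the array, and 0 probe sets named a member together with another gene. All 10 genes were among the 11260 genes tested, and 19 of the 22 probe sets passed the filter on dim signals.

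The tested cultures were 3 arrays labelled FOG1-/- ki/ki, called FOG1 ki/ki below. The controls were 3 arrays, of which replicates 1 and 2 were FOG1+/- and replicate 3 was FOG1+/+. All came from fetal liver cells of mice on a mixed C57BL/6xSv129 background, grown with thrombopoietin and enriched for mature megakaryocytes on an albumin gradient, per the labels. FOG1 is the product of Zfpm1 and a cofactor of GATA1. In published work on mice of this name the knocked-in FOG1 cannot bind NuRD, while the labels used here do not state what the allele changes. The control group mixes genotypes, and its only FOG1+/+ array carries replicate number 3, so genotype and replicate number cannot be told apart among controls.

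NuRD joins nucleosome remodelling by CHD4 with histone deacetylation by HDAC1 and HDAC2 in a single assembly. MTA proteins form the scaffold, RBBP4 and RBBP7 bind histones and adaptor peptides, and MBD2 or MBD3, which exclude each other, link the deacetylase part to the remodeller. FOG1 reaches the complex through a short motif at its amino terminus, which docks on RBBP4 or RBBP7 and the MTA subunits. In erythroid and megakaryocytic cells GATA1 and FOG1 use NuRD to control lineage genes. Whether subunit transcripts themselves differ when FOG1 is altered is the question of the comparison.

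No scaling step allows the signal of a probe set to be set against that of another probe set, so levels below are compared between arrays only. The deposited values are MAS5 signals on a linear scale, and differences are on the log2(signal + 16) scale. For each gene the values are those of its brightest probe set. Of 11 megakaryocyte markers, 9 were tested, and their signals lay between 902 and 4156 on every array, so the labelled cell type was present throughout. In such bulk samples, fewer cells of a type and less RNA per cell cannot be told apart. The ratio of 3' to 5' Gapdh signal, a measure of RNA integrity, was 1.20, 1.63 and 2.38 in FOG1 ki/ki replicates 1, 2 and 3, against 1.24, 1.74 and 1.86 in the controls. The culture of FOG1 ki/ki replicate 1 was male and that of control replicate 1 female, from an Xist signal of 2.40 against 807 and an Eif2s3y signal of 1147 against 2.50. The other 4 arrays were male by the same genes.

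None of the 10 subunit genes passed the test between FOG1 ki/ki and control. With limma and Benjamini-Hochberg adjustment over all genes, the members' adjusted p lay between 0.974 and 0.999, and 0.151% of all genes tested were called. At an unadjusted p under 0.05 there were 0 members, against 6.69% of all genes tested. With the replicate number as a block there were again 0 members called (limma adjusted p from 0.377 to 0.748), while that fit called 0.835% of all genes. At an unadjusted p under 0.05 the blocked fit had 0 members, against 18.4% of all genes. By probe set, 0 of the 19 passed (limma adjusted p = 0.9999 for each, while 0.0666% of all probe sets tested were called), and 0 of them passed with the block (0.524% of all probe sets).

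The members' mean was higher in FOG1 ki/ki for 9 of the 10 genes and lower for 1, Mbd2. Over all genes tested 55.1% had a higher mean in FOG1 ki/ki. The median log2 difference of the 10 genes was 0.16, against 0.03 over all genes tested, and the members' median was 0.067 without FOG1 ki/ki replicate 3. The size of the difference without sign had a median of 0.16 in the members and 0.20 over all genes tested. The residual SD of the fit, which measures the spread of arrays within a group, had a median of 0.19 in the members and 0.33 over all genes tested. All 10 members were still tested among the brightest 25% of probe sets. Neither the sizes nor the residual SDs were compared at matched signal.

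**Figure D1:**
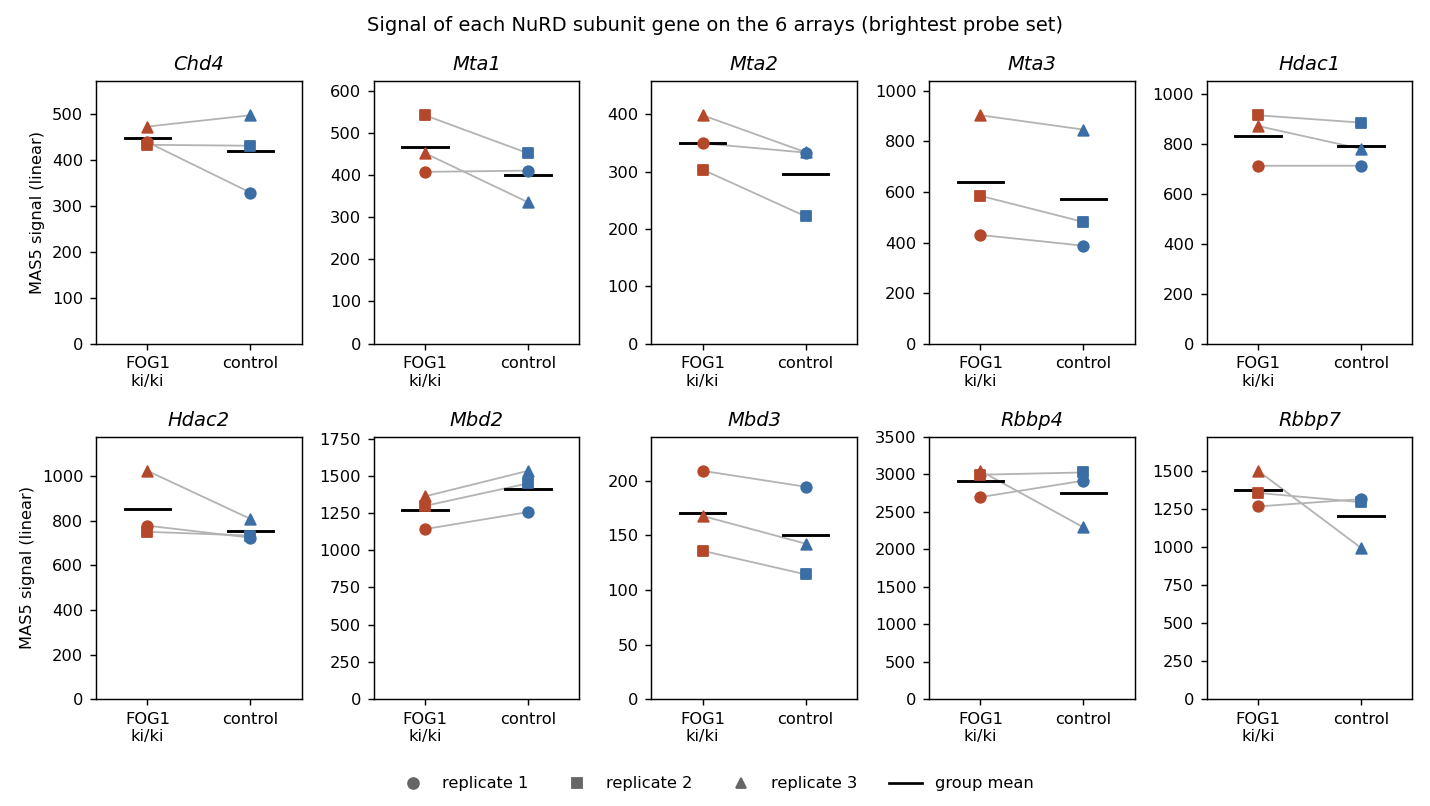
MAS5 signal (linear scale, from 0) of the brightest probe set of each subunit gene on the 3 FOG1 ki/ki and 3 control arrays, with a line joining arrays of the same replicate number and a bar at each group mean. The groups overlap in all 10 panels, and Mbd2 is the gene whose lines all climb towards the control side.

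Chd4, the ATPase that slides nucleosomes, had signals of 439.5, 434 and 474 in FOG1 ki/ki replicates 1 to 3, against 329.5, 432 and 498 in the controls. Control replicate 1 was the low array and the groups overlapped. The means were 449 ± 21.5 in FOG1 ki/ki and 419.8 ± 85.0 in control (SD, n = 3 each). On the log2 scale they differed by 0.11 (SE 0.22, 95% interval -0.39 to 0.61, limma adjusted p = 0.999). Within replicate numbers the differences were 0.40, 0.01 and -0.07, so the higher mean came from the first pair.

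The metastasis-associated proteins MTA1, MTA2 and MTA3 are alternative scaffolds that hold and activate the deacetylases. Mta1 read 407.5, 542 and 452 in FOG1 ki/ki and 410.5, 452 and 335 in control. The difference was 0.22 (SE 0.21, 95% interval -0.28 to 0.72), with pair differences of -0.01, 0.25 and 0.41. Replicate 1 showed almost no difference, and the FOG1+/+ array was the lowest of the 6.

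Mta2 read 349, 303 and 398 in FOG1 ki/ki and 333, 222 and 334 in control. Its log2 difference of 0.25 (SE 0.25, 95% interval -0.33 to 0.82) was the largest among the members in size, and the pair differences were 0.07, 0.43 and 0.24. All 3 pairs pointed up, yet the groups overlapped because the replicate 2 arrays were low in both genotypes.

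By the root mean square difference of log2 profiles, each centred on its own mean over the 6 arrays, the genes closest to Mta2 were Nek9, a mitotic kinase (0.07), Ralgapa1, a Ral GTPase activator subunit (0.07), and the aminopeptidase gene Npepl1 (0.07). The median over all genes tested was 0.39, and genes picked as the closest lie under it by that choice. Nek9 read 648, 550.5 and 718 in FOG1 ki/ki and 547, 372 and 571 in control, with the replicate 2 arrays lowest in each group, as for Mta2.

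Mta3 read 430.1, 585 and 904 in FOG1 ki/ki and 387, 482 and 847 in control. The replicate 3 arrays stood far above the others in both groups. The difference between groups was 0.17 (SE 0.36, 95% interval -0.66 to 1.001), the widest interval of the 10 genes, while the pair differences were 0.15, 0.27 and 0.09. With the replicate number as a block the interval narrowed to -0.10 to 0.44 and the adjusted p was 0.455.

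Of the deacetylases, Hdac1 read 714, 916 and 873 in FOG1 ki/ki and 714, 887 and 782 in control. The difference was 0.07 (SE 0.17, 95% interval -0.33 to 0.47), the smallest in size of the 10 genes. Pair differences were -0.0002, 0.05 and 0.16. Hdac2 read 779, 751 and 1025 in FOG1 ki/ki and 725, 734 and 809 in control, a difference of 0.16 (SE 0.18, 95% interval -0.26 to 0.57). FOG1 ki/ki replicate 3 was the high array, and the pair differences were 0.10, 0.03 and 0.33. A second Hdac2 probe set, 1449080_at, read 641, 518 and 639 in FOG1 ki/ki and 595, 504.5 and 545 in control, a difference of 0.12 with all 3 pairs higher.

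MBD2 binds methylated CpG, whereas mammalian MBD3 largely lacks that ability, and a NuRD complex contains either of them. Mbd2 read 1142, 1298 and 1362 in FOG1 ki/ki and 1256, 1449 and 1533 in control. In every pair the FOG1 ki/ki array was the lower one, and the overlap of the groups came from the low replicate 1 arrays. The log2 difference was -0.15 (SE 0.14, 95% interval -0.48 to 0.17, limma adjusted p = 0.991). The pair differences of -0.14, -0.16 and -0.17 had an SD of 0.02, the smallest of the 10 genes. With the replicate block the limma adjusted p of Mbd2 was 0.377 (95% interval -0.36 to 0.05).

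The second Mbd2 probe set, 1425803_a_at, read 146, 108.5 and 76.2 in FOG1 ki/ki and 146, 136 and 137 in control. It differed by -0.34 (SE 0.30, 95% interval -1.03 to 0.35), with pair differences of -0.0027, -0.29 and -0.73. Its first pair was level and its last carried most of the difference, unlike the brighter probe set.

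Mbd3 read 209, 136 and 168 in FOG1 ki/ki and 195, 114 and 142 in control. Each FOG1 ki/ki array was above the control of the same number, by 0.10, 0.22 and 0.21. The difference was 0.18 (SE 0.30, 95% interval -0.51 to 0.87). The replicate 1 arrays were high and the replicate 2 arrays low in both genotypes, a range of 0.63 between the means of the replicate numbers.

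RBBP4 and RBBP7 are closely related WD40 proteins that bind histone H4 and the tail of FOG1. Rbbp4 read 2697, 2996 and 3048 in FOG1 ki/ki and 2916, 3026 and 2294 in control. The FOG1+/+ array was low and the others lay close together. The difference was 0.09 (SE 0.13, 95% interval -0.21 to 0.39), with pair differences of -0.11, -0.01 and 0.41.

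Rbbp7 read 1266, 1355 and 1500.0 in FOG1 ki/ki and 1314, 1294 and 994 in control. Here too the FOG1+/+ array was the low one. The difference was 0.20 (SE 0.16, 95% interval -0.17 to 0.57, limma adjusted p = 0.974), with pair differences of -0.05, 0.07 and 0.59. A second Rbbp7 probe set, 1415775_at, read 1236, 1292 and 1218 in FOG1 ki/ki and 1209, 1200.0 and 981 in control. It was the single probe set of the 19 whose groups did not overlap in the upward direction, against 5.35% of all probe sets tested, and 0 of the 19 did so downward (4.9% of all probe sets). Its difference was 0.15 (SE 0.15, adjusted p = 0.9999). Rbbp7 lies on the X chromosome and the replicate 1 cultures differed in sex. The difference of the brightest probe set was 0.33 without both arrays numbered 1 and 0.0063 without both arrays numbered 3. The part of sex in the Rbbp7 values was not tested.

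Mta1, Hdac1, Hdac2, Rbbp4 and Rbbp7 had their largest pair difference in replicate 3, upward in each, and so did Mbd2, downward. The 3' to 5' Gapdh ratio was also furthest apart in that pair, at 2.38 in FOG1 ki/ki and 1.86 in control. The 3' to 5' actin ratio was 1.36, 2.06 and 2.76 in FOG1 ki/ki and 1.44, 2.11 and 1.93 in control. Mitosis markers also had their largest median in the pair of replicate 3. Of 17 tested, 16 had a higher mean in FOG1 ki/ki, their median log2 differences in pairs 1, 2 and 3 were 0.09, 0.27 and 0.65, and their summed signal was 10644 to 12538 in FOG1 ki/ki and 6818 to 11053 in control, lowest in the FOG1+/+ array. Mast cell markers were also higher in all 8 tested, with a summed signal of 6248 to 6759 in FOG1 ki/ki and 249 to 3330 in control, again lowest in the FOG1+/+ array. The mast cell tryptase genes Tpsb2 and Tpsab1 and the protease gene Mcpt4 were too dim to test, with highest signals of 16.3, 4.30 and 1.80. Macrophage markers were lower in all 11 tested, with a summed signal of 3977 to 11013 in FOG1 ki/ki and 8319 to 14327 in control. Fibroblast markers were lower in all 8 tested, with a summed signal of 134 to 2680.5 in FOG1 ki/ki and 206 to 6374 in control. Replicate 2 was highest in both groups, and the fibroblast median difference of -0.76 turned to 0.11 without control replicate 2. Of 3 erythroid markers tested 1 was higher and 2 were lower. The part of any of these in the subunit values was not tested.

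**Figure D2:**
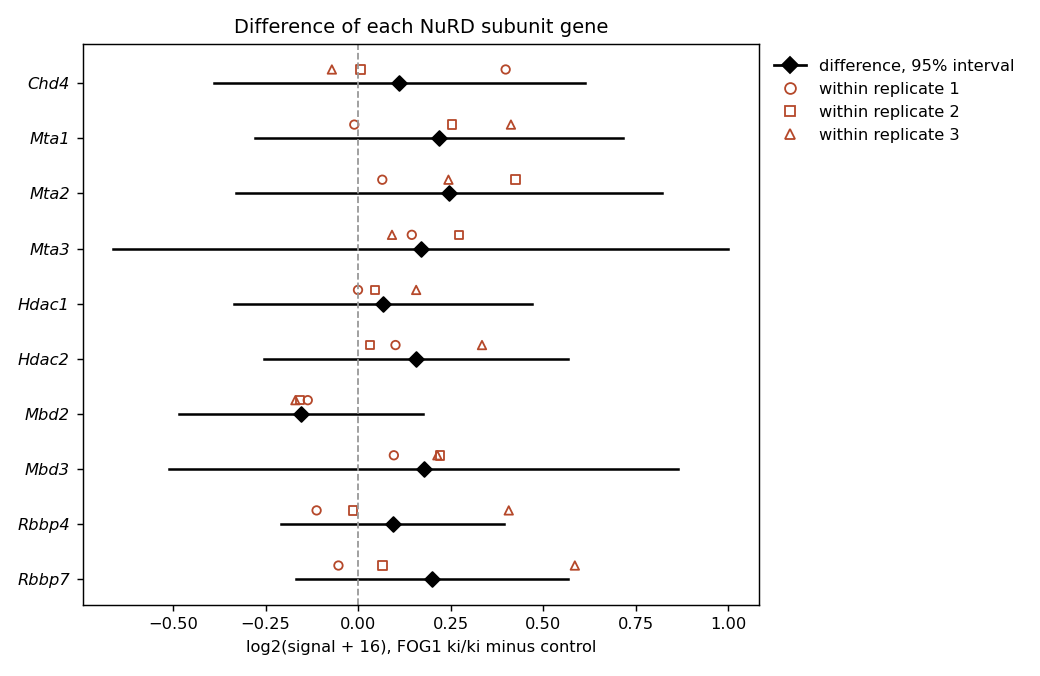
Difference of log2(signal + 16), FOG1 ki/ki minus control, for the brightest probe set of each subunit gene: diamonds with the 95% interval of the unblocked fit, and open symbols for the difference within each replicate number. All 10 intervals include 0, and the open symbols of Mbd2 lie together between -0.14 and -0.17 while those of Rbbp7 run from -0.05 to 0.59.

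Within equal replicate numbers, 4 of the 10 genes were higher in FOG1 ki/ki in all 3 pairs (Mta2, Mta3, Hdac2 and Mbd3), against 24.8% of all genes tested. The gene lower in all 3 pairs was Mbd2, against 19.3% of all genes. Such runs were common on these arrays, so neither count is a result about the members. For 0 of the 10 genes did the groups not overlap, against 6.32% of all genes higher and 4.93% lower without overlap. Among the 19 probe sets 8 were higher in all 3 pairs (22.2% of all probe sets) and 2 were lower (18.1%).

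The 95% intervals give the range of differences these arrays allow. In the fit without the replicate block, as folds of signal + 16, the interval was narrowest for Rbbp4, from 0.866 to 1.31, and for Mbd2 it ran from 0.715 to 1.13. It was widest for Mta3, from 0.632 to 2.001. For Chd4 it ran from 0.763 to 1.53 and for Hdac1 from 0.793 to 1.39. With the replicate block the intervals on the log2 scale were narrowest for Mbd2, from -0.36 to 0.05, and widest for Mbd3, from -0.23 to 0.58, and for Mta3 the interval ran from -0.10 to 0.44. A p above the threshold does not show equal levels.

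Several subunits had a range between replicate numbers that was wider than their difference between genotypes. The range spans more means, each of fewer arrays, so it tends to be the larger even with no effect of either. The mean of Mta3 on the log2 scale was 8.73, 9.09 and 9.80 for replicates 1, 2 and 3, a range of 1.07 against a group difference of 0.17. The second Mta3 probe set, 1451352_s_at, read 336, 341 and 558 in FOG1 ki/ki and 305, 287 and 561 in control, so both probe sets placed the replicate 3 cultures highest. The high Mta3 of the FOG1+/+ control was matched by the FOG1 ki/ki array of the same number.

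Probe sets of 1 gene did not always share this pattern. The brightest Chd4 probe set was highest in the replicate 3 pair, with log2 means of 8.63, 8.81 and 8.97 for replicates 1, 2 and 3. The Chd4 probe set 1438476_a_at read 242, 207 and 141 in FOG1 ki/ki and 219.6, 163 and 104 in control, with the replicate 3 pair lowest, and 1436343_at ran the same way with 105, 67.5 and 47.7 against 92.5, 53.8 and 46.9. All 3 pair differences were positive for both of these dimmer probe sets, at 0.13, 0.32 and 0.39 for 1438476_a_at and 0.16, 0.26 and 0.02 for 1436343_at. Their group differences were 0.28 (SE 0.34) and 0.14 (SE 0.36), neither past the test.

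Rbbp4 split likewise. The probe set 1454875_a_at read 118, 85.0 and 31.2 in FOG1 ki/ki and 112.5, 62.0 and 38.1 in control, with a range of 1.38 between replicate numbers and a group difference of 0.08. The brightest Rbbp4 probe set ranged by 0.19 between replicate numbers. A further Rbbp4 probe set, 1454791_a_at, read 777, 994 and 729 in FOG1 ki/ki and 797, 762 and 583 in control, a difference of 0.22 (SE 0.20), and a dim one, 1456260_at, read 47.5, 35.3 and 4.26 against 14.9, 36.1 and 13.9. The 3' to 5' ratios given above also differed by replicate number, and their part in these patterns was not tested.

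**Figure D3:**
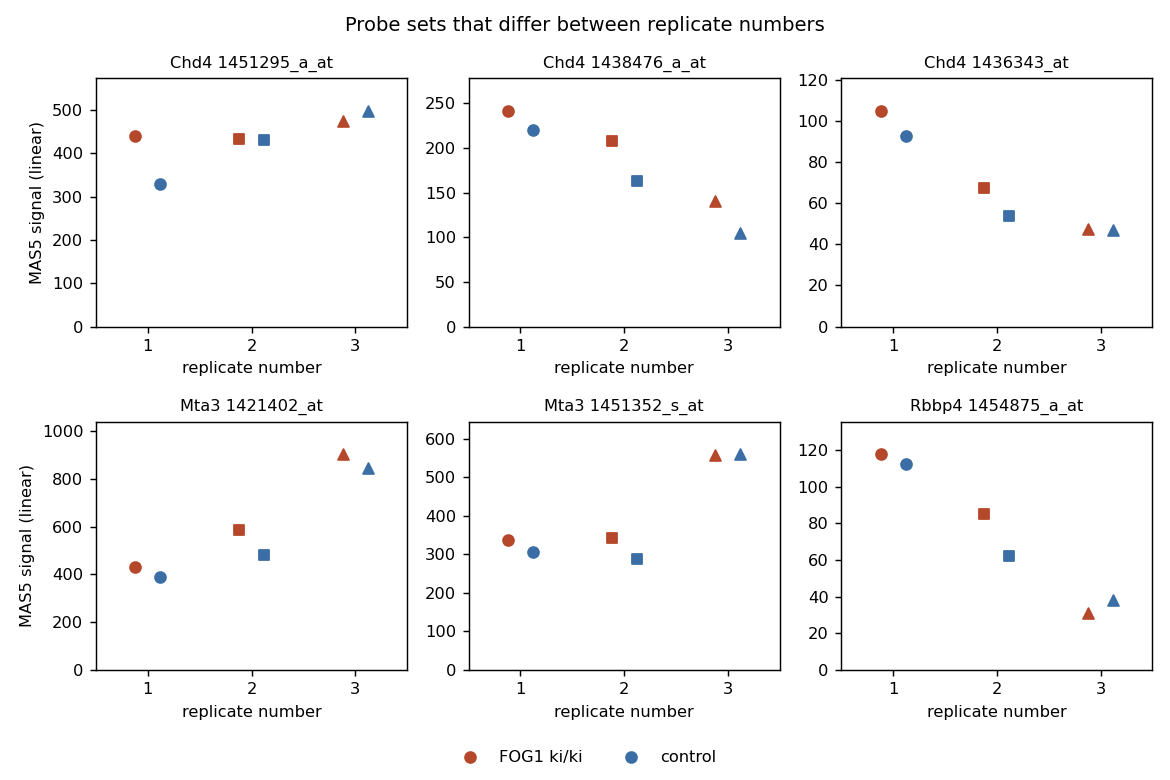
MAS5 signal (linear scale, from 0) of 6 probe sets of Chd4, Mta3 and Rbbp4 by replicate number, with FOG1 ki/ki left of control within each number. Both Mta3 probe sets are highest in replicate 3, whereas 2 of the 3 Chd4 probe sets and the Rbbp4 probe set shown are lowest there.

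The 3 member probe sets under the filter were near background on all arrays. The Mta1 probe set 1440113_at read at most 0.8 in FOG1 ki/ki and at most 1.5 in control, the Mta3 probe set 1443350_at 5.90 to 10.3 and 2.28 to 5.80, and the Hdac2 probe set 1439704_at 3.09 to 9.80 and 3.20 to 10.1. The Mta3 groups did not overlap, but at signals where MAS5 values are noisy.

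Paralog balance was taken as the log2 ratio of paralogous subunits' signals on 1 array. Probe effects cancel in comparisons of this ratio between arrays only where they are equal on each array. Probe sets of Chd4 and of Rbbp4 differed in their pattern over the arrays, as given above. The ratio itself is not a ratio of transcripts. For 7 such pairs the exact two-sided permutation test, whose smallest possible p is 0.1 with 3 against 3 arrays, could not reach 0.05, and the Benjamini-Hochberg adjusted p over the 7 lay between 0.7 and 0.9.

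Mbd2 over Mbd3 differed most. The ratio was 2.36, 3.11 and 2.91 in FOG1 ki/ki and 2.59, 3.49 and 3.29 in control. In each replicate number the FOG1 ki/ki array had the lower ratio, by -0.23, -0.38 and -0.38, while the low replicate 1 arrays made the groups overlap. The difference of means was -0.33 (2.79 ± 0.39 in FOG1 ki/ki and 3.13 ± 0.47 in control, SD, n = 3 each, exact permutation p = 0.4, adjusted 0.9). An exact sign-flip test of the 3 pair differences gave p = 0.25, the smallest it allows, and 0.875 adjusted over the 7.

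Rbbp4 over Rbbp7 was 1.08, 1.14 and 1.01 in FOG1 ki/ki and 1.14, 1.22 and 1.19 in control. The groups did not overlap, the difference was -0.11 and the exact permutation p was 0.1 (adjusted 0.7). Both brightest probe sets have identifiers ending in _x_at, which marks probes that can bind other transcripts. With the brightest probe sets that end otherwise, the ratio was -0.66, -0.37 and -0.73 in FOG1 ki/ki and -0.59, -0.65 and -0.73 in control, so the groups overlapped and the difference turned to 0.07 (exact permutation p = 0.8).

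Hdac1 over Hdac2 was -0.12, 0.28 and -0.23 in FOG1 ki/ki and -0.02, 0.27 and -0.05 in control, a difference of -0.09 (exact permutation p = 0.6). Among the scaffolds, Mta1 over Mta2 differed by -0.03, Mta1 over Mta3 by 0.05 and Mta2 over Mta3 by 0.08 (exact permutation p from 0.8 to 0.9). Their replicate numbers differed by far more. Mta1 over Mta3 averaged 0.0027, -0.10 and -1.14 over both genotypes in replicates 1, 2 and 3. Chd4 over Chd3, its paralog, differed by -0.08 with pair differences of -0.26, 0.37 and -0.34. Chd3 was dim, at 18.6 to 29.5 in FOG1 ki/ki and 12.6 to 35.7 in control.

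**Figure D4:**
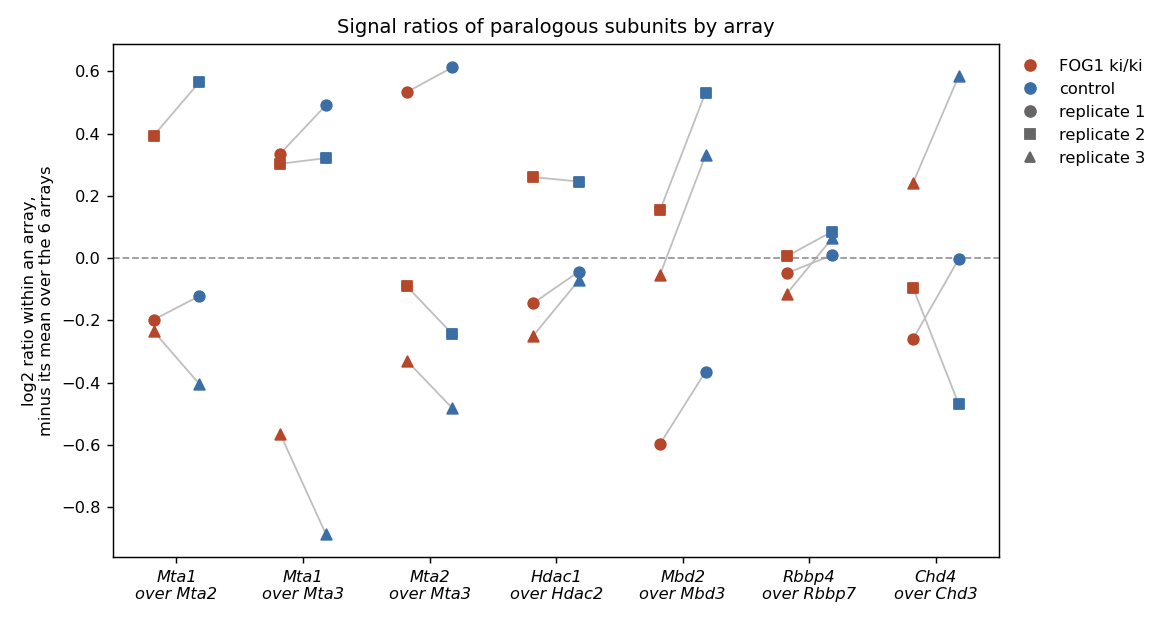
Log2 signal ratio of paralogous subunits on each array, minus the mean of that ratio over the 6 arrays, with FOG1 ki/ki left of control and lines joining equal replicate numbers. The lines of Mbd2 over Mbd3 run upwards to the control side in all 3 replicate numbers. Mta1 over Mta3 sets the replicate 3 arrays apart in both groups, whereas for Mta2 over Mta3 the replicate 1 arrays stand highest.

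None of the remaining NuRD subunits passed the test either. Gatad2a, which bridges MBD proteins to the remodeller, read 2063, 2111 and 2080 in FOG1 ki/ki and 1914, 2323 and 1961 in control, a difference of 0.02. Its paralog Gatad2b differed by -0.06, Cdk2ap1 by 0.19, Cdk2ap2 by -0.18, Chd3 by 0.19 and the very dim Chd5 by under 0.01. Of these 6 genes 4 had a higher mean and 2 a lower mean in FOG1 ki/ki, 0 passed the test with or without the block, and the median difference was 0.01.

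Among proteins that bind or recruit NuRD 15 were tested, 7 with a higher and 8 with a lower mean, and 0 passed. Zfpm1 itself read 480.0, 868 and 1274 in FOG1 ki/ki and 429.7, 862 and 1137 in control, a difference of 0.11 (adjusted p = 0.999), which does not check the genotype labels since a knocked-in allele can be transcribed. Gata1 differed by -0.13. Gata2, the GATA factor of progenitors, read 1797, 2017 and 1767 in FOG1 ki/ki and 911, 1048 and 481 in control, a difference of 1.25 (adjusted p = 0.242, and 0.0584 with the block). Bcl6, a zinc finger repressor, read 106, 244 and 138 in FOG1 ki/ki and 357, 702 and 253 in control, a difference of -1.29 (SE 0.43, adjusted p = 0.523, and 0.0584 with the block). Both genes had groups that did not overlap, and neither passed in either fit. Of the 15 genes, 1 was higher and 1 lower without overlap, against 6.32% and 4.93% of all genes tested. Ikzf1 differed by 0.93, most of it in the pair of replicate 3 (2.20).

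HDAC1 and HDAC2 also serve the SIN3, CoREST, MIER and MiDAC complexes. Of 22 tested genes of these complexes, 14 had a higher and 8 a lower mean, 0 passed, and the median difference was 0.04. Sin3b, a SIN3 scaffold, read 1465, 1566 and 1632 in FOG1 ki/ki and 1883, 1891 and 2214 in control, without overlap (difference -0.35, SE 0.12, adjusted p = 0.549). Brms1l differed by 0.23, also without overlap, and Mier2 by 0.41. Of the 22 genes, 1 was higher and 1 lower without overlap, against 6.32% and 4.93% of all genes tested. RBBP4 and RBBP7 are shared with PRC2, chromatin assembly factor 1 and other assemblies. Of 12 such genes tested, 10 had a higher mean, against 55.1% of all genes tested, and 0 passed. Their median difference was 0.09, against 0.03 over all genes tested, with Chaf1b at 0.37, Hat1 at 0.27 and Eed at 0.17. Of the 12 genes, 0 were higher and 0 lower without overlap, beside the same shares of all genes. Whether these genes differ as a set was not tested.

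Among 7 other histone deacetylase genes tested, 2 had a higher and 5 a lower mean, and 0 passed. Hdac6, a mainly cytoplasmic tubulin deacetylase, read 43.1, 43.9 and 26.5 in FOG1 ki/ki and 65.7, 72.2 and 99.2 in control, without overlap (difference -0.82, SE 0.29, adjusted p = 0.579). Of the 7 genes, 0 were higher and 1 was lower without overlap, against 6.32% and 4.93% of all genes tested. Hdac7 differed by 0.41 and Hdac10 by 0.37. Of 9 other CHD and MBD genes 5 had a higher and 4 a lower mean and 0 passed (median difference 0.20, or -0.19 without control replicate 1 and 0.0014 with the mean of probe sets per gene). Chd1 read 286, 293 and 328 in FOG1 ki/ki and 237, 240.5 and 243 in control, without overlap (difference 0.31, SE 0.21, limma adjusted p = 0.945). Mbd1 differed by 0.22 and Chd9 by -0.25. Of the 9 genes, 1 was higher and 0 were lower without overlap, beside the same shares of all genes. For comparison, the megakaryocyte marker Itga2b differed by -0.07. All 9 megakaryocyte markers tested had a lower mean in FOG1 ki/ki, with a median difference of -0.19 and Tubb1 at -1.01. Of these 9, 0 passed the test with or without the block.

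**Figure D5:**
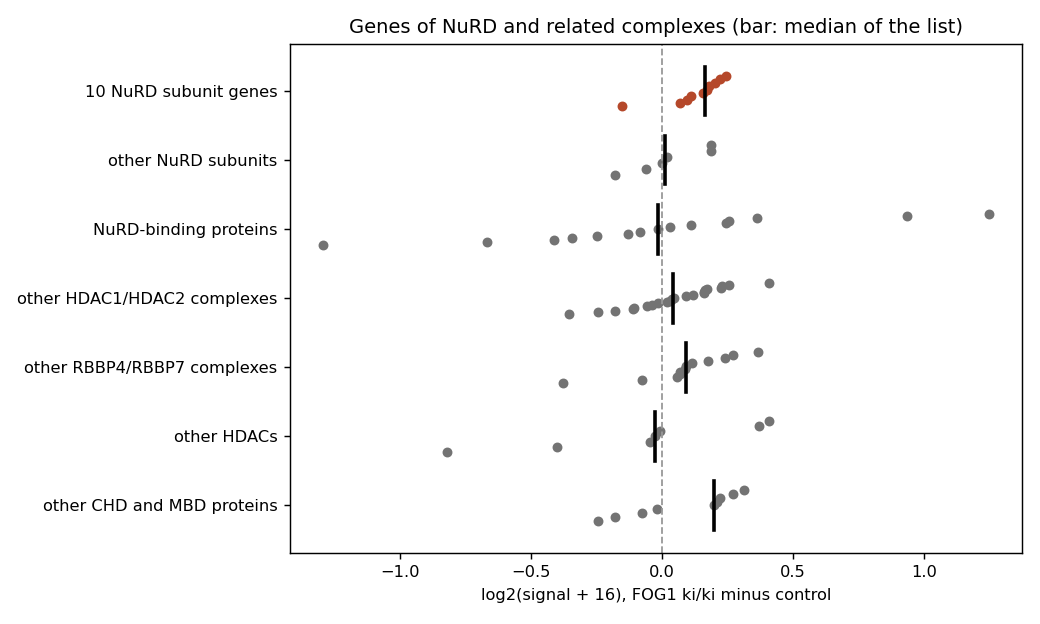
Difference of log2(signal + 16), FOG1 ki/ki minus control, for each tested gene of NuRD and related complexes, with a bar at the median of each list and genes offset vertically to keep points apart. The 10 subunit genes lie between -0.15 and 0.25, while Gata2 at 1.25 and Bcl6 at -1.29 mark the ends of the list of NuRD-binding proteins.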

How the data were processed

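The authors deposited MAS5 signals, array intensities on a linear scale, 1 column per array, per the submitters' processing notes, which give no version. The 2% trimmed mean was 150 in every deposited intensity column. The median signal ranged from 5.93 to 12.3, and the number of arrays limits the precision. The sources used here give no genome build, so coordinates are not printed. Scanner files and detection calls were not used here.

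Intensities were analysed as log2(signal + 16), without the 64 control probe sets and the lower 50% of the remaining probe sets by mean. A gene's value is that of the brightest probe set that the platform annotation gives to it alone. A limma fit (version 3.58.1, R 4.3.3, lmFit and trended eBayes) compared FOG1 ki/ki with control over all 11260 genes, and over all 22518 probe sets. Adjustment was by Benjamini-Hochberg, and the threshold 0.05. The fits were also run on simulated data. Its changed genes differed by more than any member did, and its unblocked case held no effect of replicate number. The power for differences of the members' size was not checked. Summaries, exact tests and figures used Python 3.11.15 (pandas 2.3.3, numpy 2.4.6, scipy 1.17.1, matplotlib 3.10.9).

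The labels number the replicates 1 to 3 in both groups and do not say what a number shares. Across genes, deviations from the group mean correlated between same-numbered arrays at 0.482, 0.689 and 0.674, which was read as pairing. The unblocked fit is the main one and the block an alternative, so the main intervals also hold the spread between replicate numbers. The members' median residual SD was 0.19 in the unblocked fit and 0.12 with the block.

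The members and lists were chosen with earlier results of these data known. Named were all members, all of a list with up to 6 tested genes, otherwise the 3 with the smallest unadjusted p, Zfpm1, Gata1, Gata2 and Itga2b, and the 3 genes closest to the member with the largest difference. Other settings were other pseudocounts, scalings, filters, probe set choices and variance priors, the replicate block, and arrays or pairs left out. The choice by identifier ending was added after seeing the data.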

Additional observations from a re-analysis of the deposited data

How the results depend on the processing

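Under the 19 other settings 0 of the 10 subunit genes passed the test (limma), with the lowest adjusted p at 0.377. Of the 11260 genes tested in the main fit, 17 were called there. The replicate block called 94, the setting with no filter 1, those with single arrays left out 1 to 2, and that without both arrays numbered 1 called 0. Where so few genes were called at all, 0 of 10 members says little about them. Under the 17 settings run on probe sets 0 of their probe sets passed, and the replicate block changed no member's call. Of 190 member differences 182 kept their sign. The replicate block, the variance prior without trend and both changed filters repeat each member's difference exactly, so no sign could turn there. All turned signs came with arrays or pairs left out. Chd4 turned to -0.032 without both arrays numbered 1 and Rbbp4 to -0.063 without both arrays numbered 3. With single arrays left out, Chd4 ranged from -0.046 to 0.24, Hdac1 from -0.0048 to 0.17, Mta3 from -0.11 to 0.48 and Rbbp4 from -0.030 to 0.17. Mbd2 stayed between -0.24 and -0.08, Mta1 between 0.10 and 0.31, Mta2 between 0.060 and 0.34, Hdac2 between 0.018 and 0.24, Mbd3 between 0.015 and 0.36 and Rbbp7 between 0.071 and 0.27. The members' median ranged from 0.067 to 0.19. The cause of these turns was not tested.

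Of ratio differences, Rbbp4 over Rbbp7 turned to 0.071 with probe sets not ending in _s_at or _x_at, Mta1 over Mta2 to 0.047 without both arrays numbered 2 and Mta1 over Mta3 to -0.087 without both numbered 3. Chd4 over Chd3 was 0.029 with a pseudocount of 64, and 0.015 and 0.058 without both arrays numbered 1 or 3. With single arrays left out, Mta1 over Mta2 ranged from -0.23 to 0.25, Mta1 over Mta3 from -0.38 to 0.34, Mta2 over Mta3 from -0.17 to 0.40, Hdac1 over Hdac2 from -0.24 to 0.014 and Chd4 over Chd3 from -0.33 to 0.20, while Mbd2 over Mbd3 stayed between -0.60 and -0.12.

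List medians moved for the other histone deacetylases in the brightest 25% of probe sets (-0.22), for the other HDAC1/HDAC2 complexes with the mean of probe sets (-0.021) and for NuRD-binding proteins by identifier ending (-0.051) and without both arrays numbered 1, 2 or 3 (-0.14, 0.034 and 0.081). For other CHD and MBD genes it was 0.0014 with the mean of probe sets and -0.050 without both arrays numbered 1. The median of the other RBBP4/RBBP7 complexes was 0.13 without both arrays numbered 1. With single arrays left out the medians ranged from -0.081 to 0.11 for other NuRD subunits, -0.27 to 0.15 for NuRD-binding proteins, -0.049 to 0.098 for other HDAC1/HDAC2 complexes, 0.026 to 0.19 for other RBBP4/RBBP7 complexes, -0.26 to 0.17 for other histone deacetylases and -0.19 to 0.32 for other CHD and MBD genes.

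Over all genes 17 were called, against 8 with a pseudocount of 1, 1 with no filter, 3 in the brightest 25% of probe sets, 94 with the replicate block, 1 to 2 without single arrays and 0 without any pair. Over all probe sets 15 were called, against 24 with quantile normalization, 1 with no filter, 1 in the brightest 25%, 118 with the replicate block, 0 to 3 without single arrays and 0 without any pair.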
